A study of Mus musculus with 9 samples.

Results

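The genes described here encode the proteins of the cytosolic ribosome, measured in transferred CD8+ T cells of mice given antibodies to CD27, to PD-1 and PD-L1, or to all 3 targets. A probe set, the group of probes that an array reads as 1 transcript, was taken as a member where its annotated symbol was Rpl or Rps followed by a digit, or was Rplp0, Rplp1, Rplp2 or Rpsa. Kinases of the Rps6k family, pseudogenes and predicted genes were left out. The rule found 104 of 65956 transcript probe sets, which named 87 of the 32848 genes on the array. By the protein's place, 54 probe sets belonged to the large 60S subunit, 34 to the small 40S subunit and 3 to the stalk. A further 7 were paralogs with an "l" in the symbol, and 4 were further copies (Rpl6l, Rpl32l, Rps3a2 and Rps3a3). The remaining 2, Rps19bp1 and Rps23rg1, met the rule by spelling only. Of the 104 probe sets, 52 named 1 gene and 52 named several. Of these, 41 also named a pseudogene or a predicted gene and 11 a small nucleolar RNA or a microRNA, with 6 naming both kinds and 6 neither. The signal of such a probe set cannot be assigned to 1 transcript.

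RNA came from pmel1 T cells, which carry a transgenic receptor for a peptide of the melanocyte protein gp100, and each of 3 groups held 3 mice with 1 array per mouse. Per the labels, congenic recipients were given Thy1.1+ CD8+ cells of such mice and 100 µg of hgp100 peptide, with 400 µg of antibody in all. The anti-CD27 group received 200 µg of the agonist AT124 with 200 µg of isotype control antibody. The anti-PD-1/L1 group received 100 µg of RMP1-14, which binds PD-1, and 100 µg of 10F.9G2, which binds PD-L1, also with 200 µg of isotype control. The combination group received all 3 agents and no isotype control. Spleens were taken on day 4, and CD8+ cells were enriched on magnetic columns before Thy1.1+ CD8+ cells were sorted by flow cytometry. No sample received peptide with isotype control alone, so each comparison is between treatments, and one mouse is one replicate.

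Ribosomes translate messenger RNA. The small subunit binds the message and decodes it, the large subunit joins amino acids, and the stalk of Rplp0, Rplp1 and Rplp2 recruits the GTPases that drive each step. Messages of ribosomal proteins begin with a cytosine and a run of pyrimidines, the terminal oligopyrimidine or TOP motif, through which mTOR signalling controls how well they are translated. Activated T cells enlarge and build many ribosomes before they divide, and control of these genes acts largely on translation, which an array of transcript levels does not read.

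The sequence around the transcript start is a property outside the naming rule, and a few starts of genes that the results turn on are shown here. RefSeq promoters (GRCm38.p6) were on hand for 66 of 85 member genes, Rps19bp1 and Rps23rg1 not counted. CTTTC or CTTCC, read on the sense strand from 20 bases before to 50 after the start, was present in 49 of 78 member starts (62.8%) and in 21.5% of 32851 starts of all genes. A start base of C followed by at least 4 bases of C or T was present in 15 of 78 member starts (19.2%) and in 2.51% of all starts. CCGGAAG on either strand of the 300 bases was found in 34.6% of member starts and in 8.86% of all starts, and AAGATGGC in 10.3% and 2.75%. These are matches of letters near annotated starts, and the annotated start can lie some bases from the one used in T cells. Each line below gives 30 bases, 5′ to 3′, from 12 before to 18 after the annotated start, with CTTTC and CTTCC in capitals where they occur, overlapping matches included. The paralog pairs come first, then the stalk protein Rplp2, then a gene lower (Rps10) and 2 genes higher (Rps26, Rpl28) than in the anti-PD-1/L1 mice. The choice was made after the values were seen.
Rps27 (chr3:90213631-90213660, minus strand): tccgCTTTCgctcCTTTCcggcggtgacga
Rps27l (chr9:66946074-66946103, plus strand): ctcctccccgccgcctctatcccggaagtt
Rpl22 (chr4:152325714-152325743, plus strand): gccctgggaaaagcaatagctggccgatcg
Rpl22l1 (chr3:28805496-28805525, plus strand): cggcgcaagcccgttctCTTCCcacggctg
Rplp2 (chr7:141447639-141447668, plus strand): gtcagcgtCTTCCTTTCgccgccggacgcc
Rps10 (chr17:27635227-27635256, minus strand): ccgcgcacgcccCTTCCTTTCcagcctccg
Rps26 (chr10:128626489-128626518, minus strand): gggcaagccgccggatcctCTTTCgagtct
Rpl28 (chr7:4792953-4792982, plus strand): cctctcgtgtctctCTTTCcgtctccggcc
The printed windows of Rps27l and Rpl22 hold neither run, and those of the other 6 genes hold 1 or 2.

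The arrays of the anti-PD-1/L1 group stood apart from the other 6. The mean of the 1324 positive control probe sets was 5.59 to 5.96 on them and 6.68 to 6.83 on the others, the mean of the 8 bacterial and phage controls was 9.62 to 9.85 against 8.51 to 8.72, and the 23 background controls averaged 4.01 to 4.16 against 3.20 to 3.32 (all log2). The defining genes of the sorted cells were present in every group: the mean over Cd8a, Cd8b1, Cd3e, Cd3d and Thy1 was 8.79 to 9.39 on the anti-PD-1/L1 arrays and 10.13 to 10.37 on the others, and 4 of the 5 were called higher and Cd3d lower on the latter. Markers of B cells (6 probe sets, mean 4.58 to 4.89), myeloid cells (7, 3.36 to 3.66), natural killer cells (3, 2.36 to 2.56), CD4 T cells (2, 4.22 to 4.80) and red cell precursors (Alas2, 2.88 to 3.20) had low means on all arrays, while Ighm, a B-cell gene, reached a group mean of 9.48. The part of these differences in the results below was not tested, and treatment cannot be told apart from how the 3 anti-PD-1/L1 arrays were prepared. Many deposited values were identical between arrays: 44 members (42.3%) had the same value on at least 2 of the 6 anti-CD27 and combination arrays, as did 61.5% of all probe sets tested, so a within-group SD of 0.00 can stem from repeated values.

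The average level of the members was alike in the 3 groups. The mean over the 104 members was 8.54, 8.51 and 8.33 on the 3 anti-PD-1/L1 arrays, 8.31, 8.34 and 8.36 on the anti-CD27 arrays and 8.35, 8.34 and 8.28 on the combination arrays. The 3 groups overlapped in this mean, since the third anti-PD-1/L1 array lay among the other 6. Within groups the members varied little: the median SD over mice was 0.13 in the anti-PD-1/L1 group, 0.04 in the anti-CD27 group and 0.05 in the combination group, against 0.14, 0.06 and 0.07 for all probe sets. All members were kept in the tests, since no filter on low values was used. Every array of all 3 groups exceeded the 95th percentile of the background controls in 53 of 104 members, and the mean of those controls, a threshold added after the data were seen, in 100. Among genes described below, Rpl6, Rpl11, Rpl22, Rpl24, Rpl30 and Rps19 were above that percentile on no array, and Rpl6l, Rps3 and Rpl10 at its own gene on no anti-PD-1/L1 array. Rpl39 and Rpl5 at its own gene were not above it on every anti-PD-1/L1 array. This list is not complete, and some further genes are marked where they are described. The exceptions to the threshold at the mean were Rpl39l and Rpl3l, paralogs known from testis and from striated muscle, and 1 probe set each of Rpl31 and Rps26 that lies away from its gene. In RNA from sorted bulk cells, fewer cells of a type and less RNA per cell cannot be told apart.

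Adding the PD-1 and PD-L1 antibodies to anti-CD27 left the ribosomal protein transcripts almost where they were. In limma with Benjamini-Hochberg adjustment over all 32750 probe sets, 1 of 104 members was called higher in the combination than in the anti-CD27 group at an adjusted p under 0.05 and none was called lower, where 1.69% of all probe sets tested were called, 1.20% higher and 0.495% lower. At an unadjusted p under 0.05 there were 10 members (9.62%), beside 9.63% of all probe sets. The median log2 difference of the members, combination minus anti-CD27, was -0.02, with -0.00 for all probe sets tested. The members' differences had an SD of 0.11 and ran from -0.32 to 0.54, and 80 of 104 lay within 0.1 of 0. The 60S, 40S and stalk probe sets gave 0 calls of 54, of 34 and of 3. Without the 2 genes that met the rule by spelling only, the count stayed at 1 of 102.

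The called member was Rps27l, a paralog of the small-subunit zinc-finger protein Rps27 and a known p53 target. Its log2 level was 6.05, 6.01 and 6.15 in the anti-CD27 mice, 6.56, 6.67 and 6.60 in the combination mice and 6.62, 6.88 and 6.48 in the anti-PD-1/L1 mice. All 3 combination mice were above all 3 anti-CD27 mice, and they overlapped with the anti-PD-1/L1 mice. The difference between combination and anti-CD27 was 0.54 (SE 0.10, adjusted p = 0.0345, limma). The call was lost in 10 of 20 alternatives, among them leaving out any 1 of the 6 arrays compared, with adjusted p from 0.00131 to 0.164 and the difference between 0.49 and 0.64. The Rps27l probe set was not above the 95th percentile of the background controls in any group, so no fold is given.

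Rps27 itself went the other way in its measured values without passing the test. The probe set at the Rps27 gene read 10.55, 10.52 and 10.57 with anti-CD27 and 10.39, 10.40 and 10.05 with the combination. The groups did not overlap, and the third combination mouse was the lowest. The difference was -0.27 (SE 0.10, adjusted p = 0.404, limma). A second Rps27 probe set, on chromosome 9, read 10.99, 11.01 and 11.06 against 10.83, 10.79 and 10.50, a difference of -0.32 (SE 0.10, adjusted p = 0.235, limma). Under median and MAD scaling of the arrays the differences shrank to -0.10 and -0.14.

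The other paralog pair known from T cells is Rpl22, which developing T cells with an alpha-beta receptor need, and Rpl22l1, which Rpl22 is known to repress. Rpl22l1 read 6.09, 6.16 and 6.42 with anti-CD27 and 6.65, 6.56 and 6.36 with the combination. The groups overlapped, and the difference of 0.30 (SE 0.19) did not pass the test (adjusted p = 0.821, limma). Rpl22 read 5.79, 5.91 and 5.94 against 5.85, 5.81 and 5.76, a difference of -0.07 (SE 0.10). Of the other 5 paralogs, Rpl7l1, related to Rpl7, differed by 0.12, and Rpl10l, Rpl39l, Rpl3l and Rps4l by 0.00, -0.05, -0.06 and -0.02, none of them called.

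**Figure D1:**
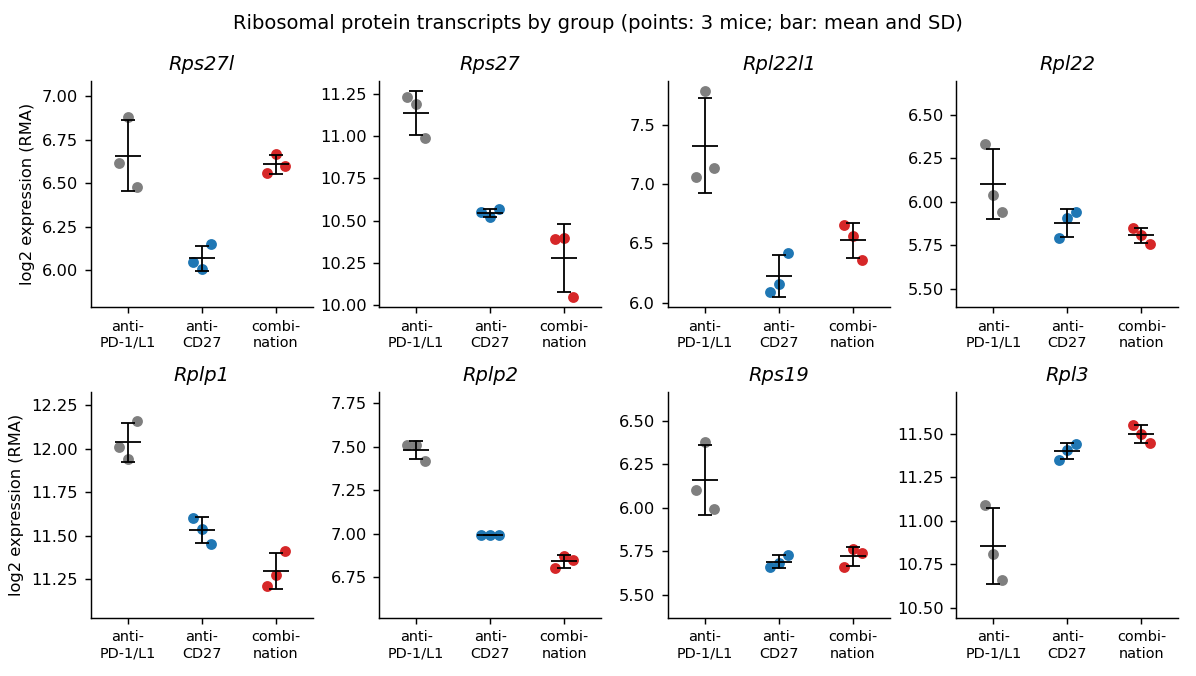
Log2 expression (RMA values as deposited, vertical axes scaled per gene) of 8 ribosomal protein probe sets at their own gene in the 3 groups, with 1 point per mouse and the mean and SD over 3 mice. Rps27l lies between 6.56 and 6.67 in the combination mice and between 6.01 and 6.15 in the anti-CD27 mice, while the groups of Rpl22l1 and Rps19 overlap in that comparison.

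The 3 stalk probe sets had negative differences between combination and anti-CD27 as deposited, none called, and Rplp0 turned to 0.13 after median and MAD scaling. Rplp1 read 11.60, 11.54 and 11.45 with anti-CD27 and 11.21, 11.27 and 11.41 with the combination, without overlap, a difference of -0.23 (SE 0.08, adjusted p = 0.30, limma). Rplp2 read 6.99 in all 3 anti-CD27 mice and 6.80, 6.87 and 6.85 in the combination mice, a difference of -0.15 (SE 0.05, adjusted p = 0.280, limma). Rplp0 differed by -0.04, with overlap. The remaining largest uncalled differences were -0.21 for Rpl37a, -0.19 for Rps14 and -0.18 for Rpl36 on the negative side. On the positive side they were 0.24 for Rps19bp1 and 0.23 for Rpl14. The probe sets of Rps2, a protein at the mRNA entry channel, had 0.08, 0.17 and 0.18. Rps6, the small-subunit protein that S6 kinases phosphorylate, differed by -0.01, and Rpsa by 0.06. Rps19, often mutated in Diamond-Blackfan anaemia, differed by 0.03. Rpl5 and Rpl11, which with 5S ribosomal RNA bind MDM2, differed by 0.03 and -0.04 at their own genes.

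Counted without regard to the test, the combination mice were all below the anti-CD27 mice in 22 members (21.2%) and all above them in 8 (7.69%), beside 8.47% and 12% of all probe sets tested and 1.69% called. Differences were below 0 for 63 members and above 0 for 41 as deposited, but for 17 and 87 after median and MAD scaling, which moved the members' median to 0.11, and for 65 and 39 after quantile normalization. Leaving out the third combination mouse, the lowest of the 3 for Rps27 and Rpl37a, moved the median to 0.00. With limma array weights, which gave the anti-PD-1/L1 arrays weights of 0.241 to 0.503, 2 members were called higher (Rps27l and 1 of the Rps2 probe sets) and 5 lower (Rplp1, Rplp2, Rpl36, Rps14 and the Rps27 probe set on chromosome 9), where 8.09% of all probe sets were called.

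**Figure D2:**
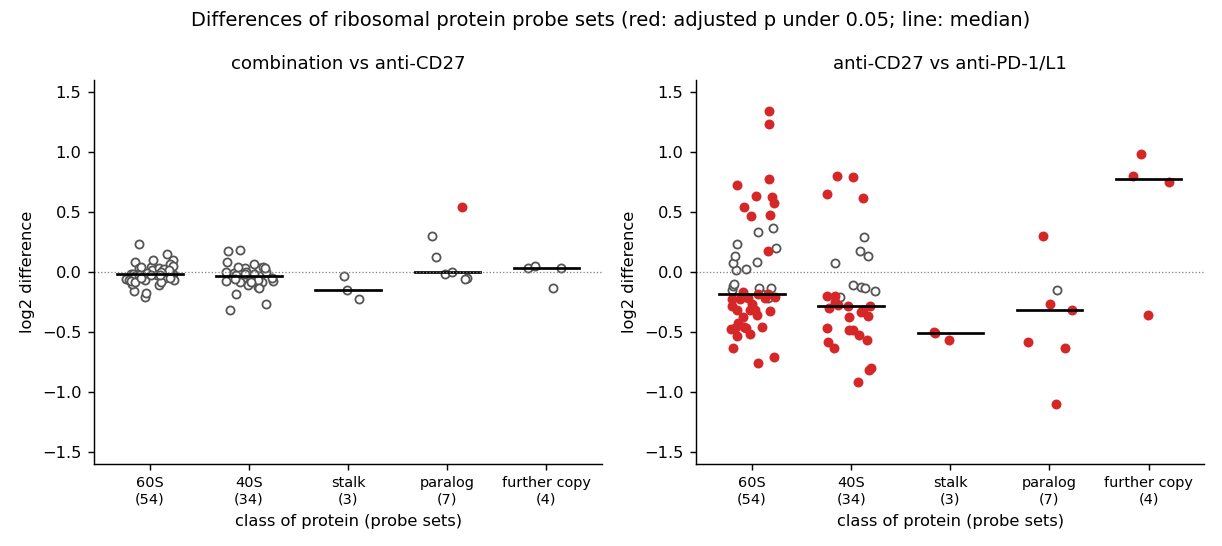
Log2 differences of the member probe sets by the class of protein, for combination minus anti-CD27 (left) and anti-CD27 minus anti-PD-1/L1 (right), with 1 point per probe set, calls in red and the class median as a line. Rps27l is the single red point on the left at 0.54, while 78 of 104 members are called on the right, where the Rpl29 probe sets are the highest.

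Genes that assemble ribosomes had more calls than the proteins they assemble. Each gene of the 4 functional lists below was read at 1 probe set, the highest that names 1 gene, while the members are all 104 probe sets. Members cut to 1 such probe set per gene had 1 call of 46 and a median of -0.02, in a fit of such probe sets only. Of 39 probe sets of assembly factors, 5 rose in the combination over anti-CD27: Heatr1 (0.55), Dkc1 (0.49), Utp20 (0.46), Bysl (0.45) and Nolc1 (0.35), which act in nucleolar processing of ribosomal RNA, and none fell. The median of the 39 was 0.20, and all 3 combination mice were above all 3 anti-CD27 mice in 26 of them (66.7%). Of all probe sets tested, 12% were separated in that direction and 1.69% were called. The related lists were not refitted under median and MAD scaling, which moved the members' median from -0.02 to 0.11. Among 11 chaperones and importers of single ribosomal proteins, 2 rose, the importer Ipo5 (0.59) and the Rps3 chaperone Ltv1 (0.40), and the median was 0.12. Mitochondrial ribosomal proteins, which form the separate ribosome of that organelle, had 1 call of 80 (Mrps18b, 0.30) and a median of 0.09. Other TOP messages, such as those of the elongation factors, had 0 calls of 24 (2 at an unadjusted p under 0.05) and a median of 0.08. Pseudogene probe sets of ribosomal proteins had 0 calls of 221 (9 at an unadjusted p under 0.05) and a median of -0.02. Fau, which encodes a 40S protein fused to a ubiquitin-like domain and lies outside the naming rule, differed by -0.18 and -0.12 at its probe sets on chromosomes 16 and 19, neither called. The members' median lay below those of the 4 functional lists, and that difference between lists was not tested.

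**Figure D3:**
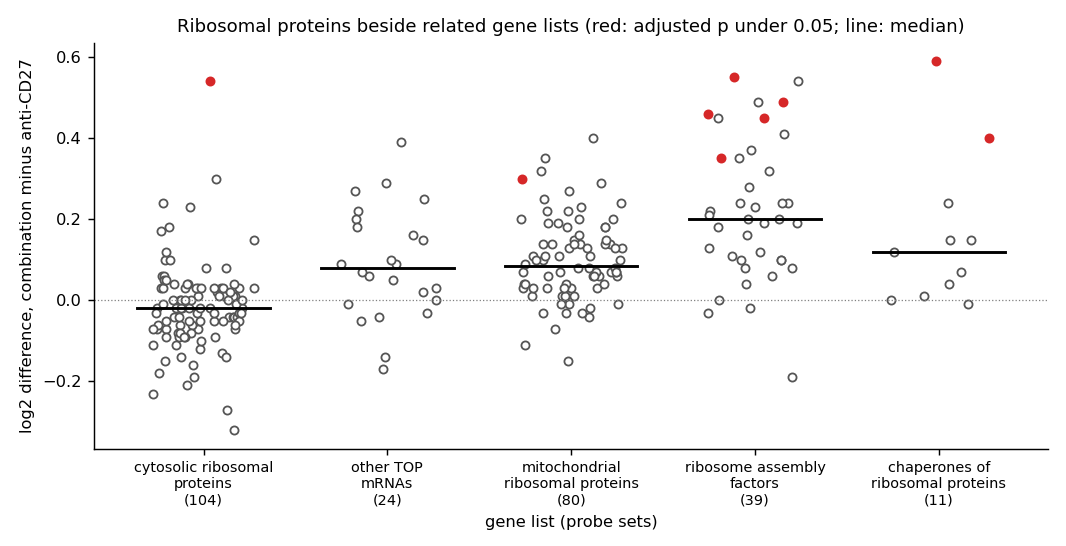
Log2 differences, combination minus anti-CD27, of the ribosomal protein probe sets and of 4 related lists, with 1 point per probe set, calls in red and the list median as a line. The members centre on -0.02 with 1 call, and the ribosome assembly factors on 0.20 with 5.

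Against anti-PD-1/L1 the members split into a larger set that was lower and a smaller set that was higher, in both the combination and the anti-CD27 group. These comparisons share the same 3 anti-PD-1/L1 arrays and are given side by side for that reason. In the combination, 21 of 104 members were called higher and 60 lower, 77.9% in all, where 71.8% of all probe sets tested were called (19.0% higher, 52.9% lower). With anti-CD27, 19 were called higher and 59 lower, 75% in all, beside 70.3% of all probe sets (17.1% and 53.2%). Without Rps19bp1 and Rps23rg1 the counts were 21 and 59, and 19 and 57, of 102. The members' median log2 difference was -0.24 and -0.22, and that of all probe sets tested was -0.25 and -0.26. As deposited, the shares called and the medians of the members were near those of all probe sets, most of which had lower levels. With the lower 50% of probe sets by mean left out, 101 members stayed and that likeness was lost. Of these, 20.8% were higher and 57.4% lower in the combination (median -0.24), beside 36.6% and 40.6% of all kept probe sets (median -0.03). With anti-CD27 they were 19.8% and 56.4% (median -0.22), beside 33.1% and 41.2% (median -0.06). This contrast was not tested. The deposited arrays had not the same distribution: the median of all probe sets was 3.92 to 3.97 on the anti-PD-1/L1 arrays and 3.55 to 3.61 on the others.

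The balance of higher and lower members depended on the scaling of the arrays. After median and MAD scaling, which put the median of all probe sets at 0.09 and 0.06, 60 members (57.7%) were higher and 7 (6.73%) lower in the combination, beside 37.6% and 17.4% of all probe sets, and the members' median was 0.29. With anti-CD27, 36 (34.6%) were higher and 7 lower, beside 34.0% and 18.6%, with a median of 0.16. After quantile normalization, with all probe sets at -0.04 and -0.06, the counts were 18 higher (17.3%) and 63 lower (60.6%) in the combination, beside 23.4% and 29.4%, and 21 (20.2%) and 63 with anti-CD27, beside 21.3% and 30.3%. The members' median was -0.38 in both. With the mean of the positive controls as a covariate, 0 were higher and 12 lower in the combination, and 0 and 15 with anti-CD27, where 6.14% and 7.79% of all probe sets were called. That mean separates the 3 groups completely, so this fit leaves little to compare. A call, a lost call or a turned sign under it, here and below, therefore decides little about a gene. Calls that held as deposited, after quantile normalization and after median and MAD scaling numbered 16 higher (14 genes) and 7 lower in the combination, and 18 higher (15 genes) and 7 lower with anti-CD27, a count added after the data were seen. That is 15.4% and 6.73% of the members, beside 15.5% and 17.3% of all probe sets, in the combination, and 17.3% and 6.73%, beside 14.1% and 18.6%, with anti-CD27. The genes below are described with that in view.

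**Figure D4:**
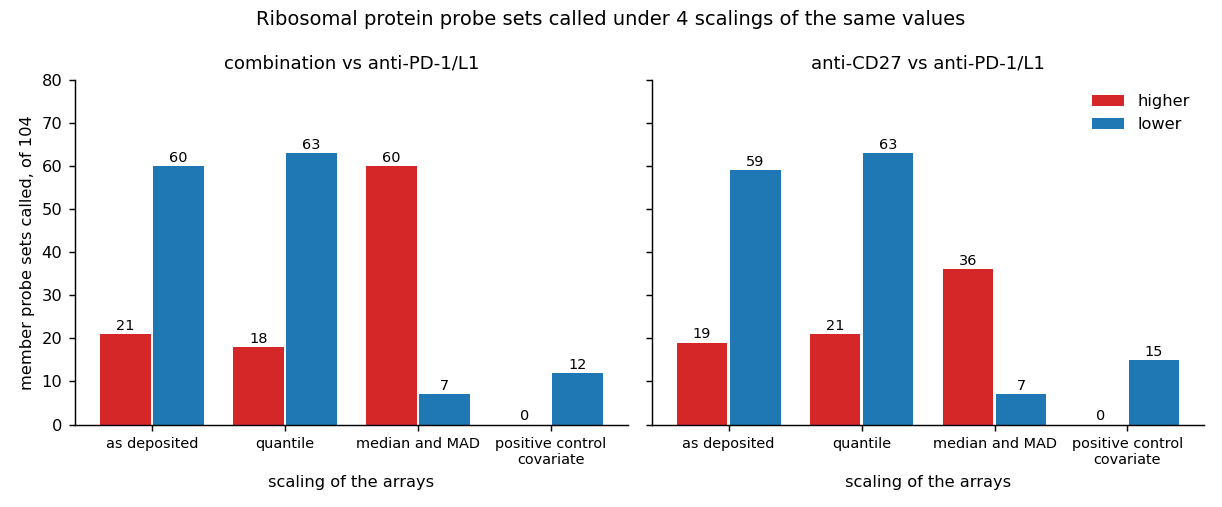
Number of the 104 member probe sets called higher (red) and lower (blue) than in the anti-PD-1/L1 group under 4 scalings of the same values, for the combination (left) and anti-CD27 (right). Lower calls outnumber higher ones as deposited (60 against 21 on the left), and higher ones outnumber lower ones after median and MAD scaling (60 against 7).

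The members that were higher than with anti-PD-1/L1 were led by Rpl29, a large-subunit protein also known to bind heparin. At its own gene Rpl29 read 8.92, 8.87 and 8.17 with anti-PD-1/L1, 9.96, 10.00 and 10.02 with anti-CD27 and 10.10, 10.21 and 9.98 with the combination. The anti-PD-1/L1 mice were all below the other 6, the third of them lowest. The difference was 1.44 (SE 0.18, adjusted p = 0.000126, limma) in the combination and 1.34 (adjusted p = 0.000211) with anti-CD27. This probe set was not above the background percentile on the third anti-PD-1/L1 array (8.17 against 8.46). A second Rpl29 probe set, on chromosome 1 and above it on all arrays, gave 1.22 and 1.23. Under the positive control covariate these 4 differences turned to -0.39, -0.31, -0.30 and -0.13, none called.

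Rps26, a small-subunit protein near the exit of the mRNA and a Diamond-Blackfan gene, read 11.11, 10.82 and 10.64 with anti-PD-1/L1, 11.57, 11.65 and 11.74 with anti-CD27 and 11.64, 11.64 and 11.44 with the combination. It was 0.72 higher in the combination and 0.80 higher with anti-CD27 (adjusted p = 0.000616 and 0.000361, limma), again with no overlap. Its probe set on chromosome 8 gave 0.67 and 0.79. The probe set on chromosome 12, at levels of 1.67 to 2.28, gave -0.32 in both, the widest disagreement among the 16 genes with several member probe sets.

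Rps3a1 and its copies Rps3a2 and Rps3a3, which encode a small-subunit protein in near-identical sequence, rose by 0.64, 0.80 and 0.84 in the combination and by 0.61, 0.75 and 0.80 with anti-CD27. Rpl6, not above the background percentile in any group, rose by 0.79 and 0.77, and its copy Rpl6l by 0.85 and 0.98. Near-identical copies can share signal, so these probe sets may not be separate measurements. Rpl10, the protein that joins the large subunit late in assembly, rose by 0.65 and 0.63 at its own gene. After quantile normalization these differences were 0.22, not called, and 0.25, called. Rpl4, part of the exit tunnel, rose by 0.70 and 0.62, and Rpl3, at the peptidyl transferase centre, by 0.65 and 0.54. The third anti-PD-1/L1 mouse was the lowest of the 9 mice for Rpl29, Rps26, Rps3a1, Rpl6, Rpl10, Rpl4 and Rpl3. On that array the positive controls (5.59) and the CD8 T-cell markers (8.79) were also lowest, and their part in these values was not tested. Without it the counts were 19 higher (18.3%) and 63 lower (60.6%) in the combination, beside 17.9% and 51.0% of all probe sets. With anti-CD27, and without that array, they were 19 (18.3%) and 64 (61.5%), beside 16.0% and 50.9%. Under the positive control covariate the differences of Rps26 on chromosomes 8 and 10, Rps3a1, Rps3a2, Rps3a3, Rpl6, Rpl6l, Rpl10, Rpl4 and Rpl3 in the combination turned below 0, from -0.41 to -1.61, none called.

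Smaller differences called in the combination were 0.59 for Rpl14, 0.54 for Rpl24, 0.52 for Rps29, 0.50 for Rpl28, 0.43 for the Rpl23a probe set on chromosome 14, 0.34 for Rpl30 and 0.32 for the X-linked Rps4x. With anti-CD27 the values were 0.57 for Rpl24, 0.65 for Rps29, 0.46 for Rpl28 and 0.47 for Rpl23a, all called. Rpl14 at 0.36, Rps4x at 0.29 and Rpl30 at 0.33 did not pass the test there (adjusted p = 0.0634, 0.0636 and 0.0504, limma). After quantile normalization Rpl23a, Rpl24 and Rpl30 were not called in the combination. The Rpl30 call there (adjusted p = 0.0446, limma) was lost in 12 of 19 alternatives and turned to -1.20 in 1 more. The Rps4x groups overlapped, and its call in the combination (adjusted p = 0.0406) was lost in 11 of 20 alternatives, among them leaving out any 1 array but the second anti-PD-1/L1 array, and turned to -0.20 in 1 more. The Rpl24 probe set also names Zbtb11, a neighbouring gene, and cannot be assigned to Rpl24 alone. Rpl7l1 rose by 0.42 and 0.30 as deposited and read -0.03 and -0.10 after quantile normalization, neither called.

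Among the members that were lower than with anti-PD-1/L1, Rps14, a small-subunit protein lost in one form of myelodysplasia, differed most in the combination. It read 6.38, 6.51 and 6.83 with anti-PD-1/L1, 5.67, 5.67 and 5.62 with anti-CD27 and 5.51, 5.43 and 5.45 with the combination. The 3 groups did not overlap in any pair. It fell by 1.11 (SE 0.10, adjusted p = 2.78e-05, limma) in the combination and by 0.92 (adjusted p = 8.29e-05) with anti-CD27. Rps14, Rps10, Rpl35a, Rpl3l and Rps23rg1 were not above the background percentile in any group, so no fold is given. That percentile was 8.12 to 8.46 on the anti-PD-1/L1 arrays and 6.73 to 7.03 on the others, and the mean of the background controls differed the same way (4.06 against 3.27 and 3.25). Its part in these differences was not tested.

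Rps10, a further small-subunit protein, read 7.14, 7.36 and 7.23 with anti-PD-1/L1, 6.44, 6.46 and 6.43 with anti-CD27 and 6.32, 6.36 and 6.23 with the combination. All 6 mice of the other groups were lower, and the level fell by 0.94 and 0.80 (adjusted p = 6.63e-06 and 1.79e-05, limma). Rpl35a, of the large subunit, read 6.21, 6.23 and 6.24 with anti-PD-1/L1, 5.45, 5.46 and 5.50 with anti-CD27 and 5.48, 5.45 and 5.23 with the combination, differences of -0.84 and -0.76. Its probe set also names 4 predicted genes. Rps14, Rps10, Rpl35a, Rpl3l and Rps23rg1 were lower in both comparisons as deposited, after quantile normalization and after median and MAD scaling. None of these calls held under the positive control covariate, where Rps14 was at -0.01 and 0.07. In the combination alone, Rpl27a at its own gene (-0.70) and the Rps27 probe set on chromosome 9 (-0.96) were also lower in those 3 fits. Rpl27a was not above the background percentile in any group. The Rps27 probe set was above it on all arrays, and was called under the covariate too (-1.86, adjusted p = 0.0347, limma). Rpl3l, the muscle paralog of Rpl3, differed by -0.70 and -0.64 at levels of 3.32 to 4.26, near the background controls. Rps23rg1, a brain-expressed gene that arose from Rps23 by retroposition, differed by -0.95 and -0.97.

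**Figure D5:**
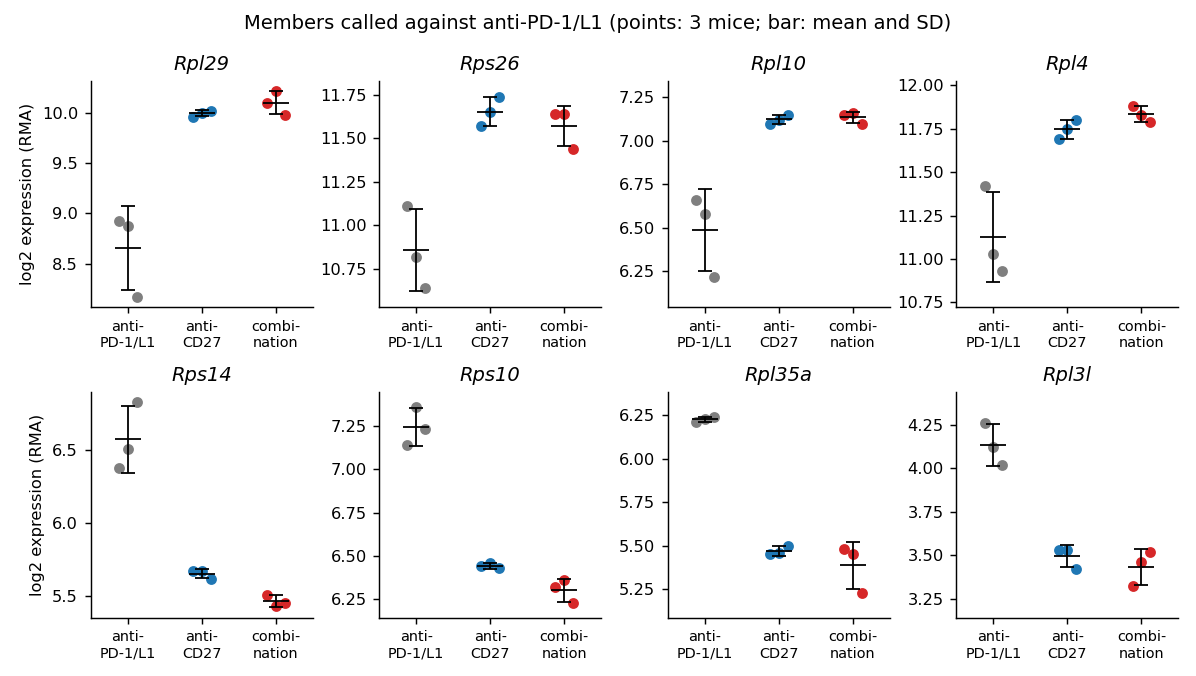
Log2 expression (RMA values as deposited, vertical axes scaled per gene) of 4 members higher (top) and 4 members lower (bottom) than in the anti-PD-1/L1 mice, with 1 point per mouse and the mean and SD over 3 mice. Rpl29 lies between 8.17 and 8.92 with anti-PD-1/L1 and between 9.96 and 10.21 in the other 6 mice, and Rps14 lies between 6.38 and 6.83 against 5.43 to 5.67.

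The stalk genes were lower in both comparisons as deposited and after quantile normalization, and were not called after median and MAD scaling. Rplp1 read 12.01, 11.94 and 12.16 with anti-PD-1/L1 and fell by 0.74 in the combination and by 0.51 with anti-CD27 (adjusted p = 6.04e-05 and 0.000539, limma). Rplp2, at 7.51, 7.51 and 7.42, fell by 0.64 and 0.50, and Rplp0, at 10.49, 10.67 and 10.67, by 0.61 and 0.57. The Rplp2 values with anti-PD-1/L1 lay below the background percentile of those arrays (8.12 to 8.46). After median and MAD scaling the 3 genes had differences of -0.03 to -0.16, and under the positive control covariate of 0.00 to -0.83, none called.

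The paralogs Rpl22l1 and Rps27l were both higher in anti-PD-1/L1 mice than in anti-CD27 mice as deposited, at levels not above the background percentile in any group. Rpl22l1 read 7.06, 7.78 and 7.13 with anti-PD-1/L1, and fell by 1.10 with anti-CD27 (SE 0.19, adjusted p = 0.000816, limma) and by 0.80 in the combination (adjusted p = 0.00445). Rps27l fell by 0.59 with anti-CD27 (adjusted p = 0.000731) and differed by -0.05 in the combination, with overlap (adjusted p = 0.665). After median and MAD scaling the calls for Rps27l with anti-CD27 (-0.22, adjusted p = 0.0517) and Rpl22l1 in the combination (-0.33, adjusted p = 0.0993) were lost. Under the covariate none of the calls of Rpl22l1 and Rps27l held. The Rps27l difference in the combination was -0.47 after quantile normalization (adjusted p = 0.00499) and 0.42 after median and MAD scaling. At its own gene Rps27 fell by 0.86 and 0.59 as deposited, and differed by -0.27 and -0.18 without a call after median and MAD scaling. The Rps27 probe set on chromosome 9 differed by -0.96 and -0.64 as deposited. After median and MAD scaling it was at -0.36, still called (adjusted p = 0.0348, limma), and at -0.22, not called. Under the covariate it was called in both comparisons (adjusted p = 0.0347 and 0.0429, limma), and the probe set at the gene in neither. Rpl22 differed by -0.30 in the combination (adjusted p = 0.0228) and by -0.22 with anti-CD27 (adjusted p = 0.066), and by 0.14 and 0.13 after median and MAD scaling. It was called lower in both comparisons after quantile normalization (-0.62 and -0.54) and under the covariate (-1.40 and -1.22).

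Several well-known members were lower as deposited and turned above 0 with median and MAD scaling in the combination: Rps3 (-0.38 and 0.11), Rpl5 at its own gene (-0.16 and 0.34), Rpl11 (-0.26 and 0.16), Rpl39 (-0.42 and 0.10), Rpl13a (-0.49 and 0.05) and Rpl36a (-0.44 and 0.09). Rpl5 and Rpl11 are the partners of 5S ribosomal RNA, Rpl39 lines the exit tunnel and Rpl13a also acts in translational silencing after interferon gamma. Rps19 differed by -0.44, and by 0.00 after that scaling. Rpsa (-0.09), Rps6 (0.16), Rpl26 (-0.16) and Rpl38 (-0.21), the protein known for translation of Hox messages, were not called in the combination as deposited. With anti-CD27 the differences of these 4 were -0.14, 0.17, -0.14 and -0.14, likewise uncalled. After median and MAD scaling all 4 were called higher in the combination, at 0.50, 0.69, 0.37 and 0.35. With anti-CD27, Rps6 (0.56) and Rpl26 (0.25) were called after that scaling, and Rpsa (0.26) and Rpl38 were not.

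Classes of the ribosome did not separate cleanly. In the 60S set 12 of 54 probe sets (22.2%) were higher and 29 (53.7%) lower in the combination, with a median of -0.20. In the 40S set 5 of 34 (14.7%) were higher and 21 (61.8%) lower, with a median of -0.26. Of all probe sets tested, 19.0% were higher and 52.9% lower there. With anti-CD27 the counts were 11 and 27 (median -0.19), and 4 and 21 (median -0.28), beside 17.1% and 53.2% of all probe sets. After median and MAD scaling the medians were 0.35 and 0.25 in the combination, and 0.20 and 0.10 with anti-CD27. Probe sets that named 1 gene and those that named several gave like counts, 11 higher and 29 lower of 52 against 10 and 31 of 52 in the combination. Of the 16 genes with several member probe sets, 13 had differences of 1 sign in all of them in each of these comparisons. The 19 members that lie on another chromosome than their gene, as copies do, had a median of -0.21 in the combination, and the 85 at their own chromosome had -0.24. The 221 pseudogene probe sets had 30 higher (13.6%) and 132 lower (59.7%) in each comparison, with medians of -0.36 and -0.37.

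The counts of related lists, from the values as deposited, are given beside those of the members, with no test between lists. Of all probe sets tested, 19.0% were higher and 52.9% lower in the combination, and 17.1% and 53.2% with anti-CD27. These lists were not refitted under the other scalings, which changed the balance of the members. Of the 39 assembly factors, 29 were higher and 6 lower in the combination than with anti-PD-1/L1 (median 1.02), led by Ncl (3.09), the nucleolar protein nucleolin, and 29 and 7 with anti-CD27 (median 0.61). Of the 24 other TOP messages, 16 were higher and 3 lower in the combination (median 0.68), among them Pabpc1 (3.09), which binds the poly(A) tail, and Eef2 (1.81), which moves the ribosome along the message, while Eef1a1, which brings aminoacyl-tRNA to the ribosome, differed by -0.02. With anti-CD27, 12 were higher and 3 lower (median 0.49). Of the 11 chaperones and importers, 4 were higher and 3 lower in the combination (median 0.07), and 3 and 4 with anti-CD27 (median 0.05). Of the 80 mitochondrial ribosomal proteins, 19 were higher and 30 lower in the combination (median -0.13), and 10 and 39 with anti-CD27 (median -0.18). Fau fell by 0.58 on chromosome 16 and 0.57 on chromosome 19 in the combination, and by 0.40 and 0.45 with anti-CD27.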

How the data were processed

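The authors deposited 1 log2 expression value per probe set and array. The submitters' processing notes name RMA and oligo 1.38.0. RMA removes background and normalizes between arrays, so a global change in RNA per cell may not be kept, and the deposited arrays did not share 1 distribution. The sources used here give no genome build. Of 72688 table rows, 6732 were controls, 31258 transcript probe sets named 1 gene, 1492 several and 33206 none. Symbols came from the platform annotation, and 2434 were updated through RefSeq synonyms. A probe set's chromosome was read from its identifier, which matched RefSeq for 99.6% of 31052 single-gene probe sets.

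Means of 3 groups were fitted to all 9 arrays with limma 3.58.1 in R 4.3.3 (lmFit and eBayes, two-sided, 6 residual degrees of freedom), without covariates, on the 32750 probe sets naming a gene. P-values were adjusted by Benjamini-Hochberg over all of them, and an adjusted p under 0.05 was a call. Error is given as the SD over 3 mice or the model's SE, and the number of arrays limits the precision. The fit was tested on simulated data. Genes were named from the 10 largest calls in each direction per comparison, the 3 largest differences where under 3 were called, and a list fixed by name. Not every one of these is described, for example Rpl36 in the combination against anti-PD-1/L1 (-0.82). Any others, such as Rps2, Rpl23a and Rpl30, were named after their values were seen. Gene lists were compared by counts and medians with no test. Members and lists were chosen with earlier results of these data known. Figures were drawn with matplotlib in Python. The closing section gives the alternatives.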

Additional observations from a re-analysis of the deposited data

How the results depend on the processing

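As deposited, with limma over all 9 arrays, 1 member was called higher and 0 lower in the combination than with anti-CD27. No member was called with all transcript probe sets tested, after quantile normalization, with the positive control covariate (median -0.08) or with the replicate block (0 and 0, median -0.02). Median and MAD scaling gave 2 higher and 0 lower (median 0.11), array weights 2 and 5, group weights 2 and 3, and the 6 arrays compared alone 1 and 4. In that order, 2.18%, 8.09%, 7.04% and 5.24% of all probe sets were called. Leaving out 1 array gave 0 to 1 higher, 0 to 0 lower and medians of -0.04 to 0.00: each of the 6 anti-CD27 and combination arrays, left out, ended the Rps27l call. The labels do not say whether replicate numbers pair the mice. Same-number correlations were -0.21 to 0.17, and with 3 arrays per group these cannot settle it. Against anti-PD-1/L1 the replicate block gave 20 higher and 55 lower (median -0.24) in the combination and 19 and 58 (median -0.22) with anti-CD27.

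Against anti-PD-1/L1, the combination and anti-CD27 gave 10 higher and 25 lower, and 9 and 24, of 46 with 1 probe set per gene, and 11 and 29, and 10 and 28, of 52 naming 1 gene. The medians were -0.38 and -0.38 after quantile normalization. Median and MAD scaling gave 60 and 7, and 36 and 7 (medians 0.29 and 0.16), and the positive control covariate 0 and 12, and 0 and 15 (medians -0.68 and -0.60). Leaving out 1 array gave 18 to 22 higher, 53 to 63 lower and medians of -0.28 to -0.21 in the combination, and 18 to 22, 50 to 64 and -0.27 to -0.19 with anti-CD27.

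After median and MAD scaling, the members named in the report whose difference from anti-PD-1/L1 changed sign, with a call in at least 1 of the fits, had in the combination 0.00 for Rps19, 0.05 for Rpl13a, 0.09 for Rpl36a, 0.09 for Rpl10l, 0.10 for Rpl41 (chromosome 10), 0.10 for Rpl39, 0.11 for Rps3, 0.12 for Rps4l, 0.14 for Rpl22, 0.16 for Rpl11, 0.18 for Rpl39l, 0.19 for Rpl5 (chromosome 7), 0.21 for Rps2 (chromosome 17), 0.21 for Rpl7, 0.34 for Rpl5 (chromosome 5), 0.35 for Rpl38, 0.37 for Rpl26, 0.38 for Rps19bp1, 0.40 for Rps2 (chromosome 18), 0.42 for Rps27l and 0.50 for Rpsa. With anti-CD27 they had 0.02 for Rpl10l, 0.03 for Rpl41 (chromosome 10), 0.03 for Rps2 (chromosome 17), 0.04 for Rps19bp1, 0.04 for Rps2 (chromosome 18), 0.07 for Rpl39, 0.08 for Rps4l, 0.08 for Rps3, 0.13 for Rpl11, 0.19 for Rpl5 (chromosome 5), 0.19 for Rpl7 and 0.25 for Rpl26. With the positive control covariate, the members named in the report whose difference from anti-PD-1/L1 changed sign, with a call in at least 1 of the fits, had in the combination -1.61 for Rps3a3, -1.34 for Rpl14, -1.31 for Rps3a2, -1.20 for Rpl30, -1.12 for Rps3a1, -0.90 for Rpl6, -0.87 for Rpl6l, -0.73 for Rps26 (chromosome 8), -0.72 for Rpl4, -0.66 for Rps26 (chromosome 10), -0.65 for Rpl28, -0.55 for Rpl3, -0.54 for Rps29, -0.44 for Rpl10 (chromosome X), -0.41 for Rpl10 (chromosome 9), -0.39 for Rpl29 (chromosome 9), -0.30 for Rpl29 (chromosome 1), -0.26 for Rpl23a (chromosome 14), -0.21 for Rpl7l1, -0.20 for Rps4x, 0.00 for Rps2 (chromosome 18), 0.00 for Rplp0, 0.00 for Rpl11, 0.09 for Rpl41 (chromosome 14) and 0.24 for Rpl41 (chromosome 10). With anti-CD27 they had -1.39 for Rps3a3, -1.38 for Rpl14, -1.14 for Rps3a2, -0.98 for Rps3a1, -0.75 for Rpl6, -0.66 for Rpl4, -0.57 for Rpl28, -0.56 for Rpl6l, -0.53 for Rpl3, -0.48 for Rps26 (chromosome 8), -0.44 for Rps26 (chromosome 10), -0.34 for Rpl10 (chromosome X), -0.33 for Rpl10 (chromosome 9), -0.31 for Rpl29 (chromosome 9), -0.31 for Rps29, -0.26 for Rpl7l1, -0.14 for Rpl23a (chromosome 14), -0.13 for Rpl29 (chromosome 1), 0.02 for Rpl11, 0.07 for Rps14, 0.13 for Rps2 (chromosome X) and 0.19 for Rpl41 (chromosome 10). After quantile normalization, the members named in the report whose difference from anti-PD-1/L1 changed sign, with a call in at least 1 of the fits, had in the combination -0.03 for Rpl7l1 and 0.12 for Rpl39l. With anti-CD27 they had -0.10 for Rpl7l1. The positive control mean separates the 3 groups completely, so that covariate leaves little to compare, and the cause of the other changes was not tested. Under it Rpl14 with anti-CD27 was called lower (adjusted p = 0.0417). Detection by the mean of the background controls and the calls shared by 3 scalings were added after the data were seen. At the 95th percentile of the background controls, 36 members were above background in no group, which limits what their differences can show.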
